A study of Saccharomyces cerevisiae with 59 samples.

Results

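The genes described here encode the proteins of the large subunit of the cytosolic ribosome in Saccharomyces cerevisiae. They were taken as all genes whose standard symbol in the R64 annotation of the yeast genome is RPL followed by a digit, joined to the count files by systematic name, which gave 76 of the 6420 genes counted. The P-stalk genes, whose symbols start with RPP, are not among them. No measured value entered the choice.

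RNA was extracted in bulk from spheroplasts, yeast cells whose wall has been digested with zymolyase, of strain S288C grown from 1 clone and held in medium without amino acids. The RNA was diluted, and the deposited set holds 10 libraries each from 5 pg, 10 pg and 20 pg, 7 from 100 pg, 8 from 1 ng and 9 from 10 ng. They were made with a single-cell protocol that primes reverse transcription with oligo-dT and amplifies by PCR, without molecular identifiers. A further 5 libraries from starved cells carry no input amount in their labels and entered no comparison. Every library came from starved cells (AAS in the labels), and none analysed here was unstarved. Nothing in the labels ties libraries of 1 amount to different cultures, and p-values then measure only the spread between libraries, which may be technical. The labels give input amount as the difference between these groups, so each comparison asks how the reading of bulk RNA differs with the amount put in. The dilution of the spike-in RNA also differed between amounts by the study's methods, and its part cannot be told apart from that of the input. Levels are counts scaled to an equal gene total in every library (CPM), and thus a share and not an absolute amount. In bulk RNA, fewer cells of a type and less RNA per cell cannot be told apart.

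A ribosome joins amino acids in its large subunit, where ribosomal RNA forms the catalytic centre and the RPL proteins fold around it, line the tunnel through which the new chain leaves and build the docking sites at its mouth. The messages of ribosomal protein genes are among the most abundant and shortest of budding yeast, and they are regulated together. Their transcription depends on Rap1, Fhl1, Ifh1 and Sfp1 and is turned down when amino acids run out and TORC1 signalling falls. An ancient genome duplication left many of them in a pair of copies, written A and B, whose products are nearly or fully the same.

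Of the 76 genes, 66 form 33 A and B pairs and 10 have a single copy, namely RPL3, RPL5, RPL10, RPL25, RPL28, RPL29, RPL30, RPL32, RPL38 and RPL39. They lie on 14 chromosomes. Coding lengths ran from 78 to 1164 nt with a median of 468 nt, against a median of 1200 nt over all genes with a coding length. Coding sequences of up to 400 nt were found for 29 members, and only RPL3, RPL4A and RPL4B exceeded 1000 nt. An intron splits the coding sequence of 52 members, with 2 introns in RPL7A and RPL7B, and 24 have none. The coding sequences of the 2 copies of a pair were identical at 78.9% (RPL22) to 99.4% (RPL1) of aligned bases (median 93.7%), and 11 pairs reached 95%.

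The RPL41 and RPL43 sequences are shown because these short members had some of the largest changes between amounts and because close copies limit what uniquely mapped reads can count, and RPL39 because it had no count in any library with an amount. All are coding sequences of the R64 genome from RefSeq with introns removed, in lower case, with capitals where the copies of a pair differ. RPL41A (chromosome IV, 130407 to 130484, minus strand) and RPL41B (chromosome IV, 221724 to 221801, minus strand) encode the smallest ribosomal protein, lack an intron and differ at 1 base of 78. RPL43A (chromosome XVI, 654166 to 654847, plus strand) and RPL43B (chromosome X, 608305 to 608858, plus strand) encode a small protein with a zinc-binding fold, have 1 intron and differ at 29 bases of 279. RPL39 (chromosome X, 75933 to 76474, plus strand) is a single-copy gene with 1 intron, whose product lines the exit tunnel.
RPL41A: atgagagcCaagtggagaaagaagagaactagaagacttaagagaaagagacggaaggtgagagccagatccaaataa
RPL41B: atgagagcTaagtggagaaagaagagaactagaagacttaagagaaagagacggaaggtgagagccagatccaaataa
RPL43A: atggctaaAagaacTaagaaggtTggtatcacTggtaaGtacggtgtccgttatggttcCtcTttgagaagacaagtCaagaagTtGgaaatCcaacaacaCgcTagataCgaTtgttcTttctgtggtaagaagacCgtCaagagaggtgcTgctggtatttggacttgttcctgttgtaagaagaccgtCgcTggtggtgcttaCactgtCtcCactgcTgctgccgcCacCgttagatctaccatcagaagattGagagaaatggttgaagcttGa
RPL43B: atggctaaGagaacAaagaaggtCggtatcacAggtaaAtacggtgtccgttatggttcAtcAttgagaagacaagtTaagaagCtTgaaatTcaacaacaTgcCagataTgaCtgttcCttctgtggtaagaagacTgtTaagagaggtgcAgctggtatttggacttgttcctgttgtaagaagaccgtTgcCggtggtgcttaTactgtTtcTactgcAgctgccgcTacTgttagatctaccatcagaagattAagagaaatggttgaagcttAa
RPL39: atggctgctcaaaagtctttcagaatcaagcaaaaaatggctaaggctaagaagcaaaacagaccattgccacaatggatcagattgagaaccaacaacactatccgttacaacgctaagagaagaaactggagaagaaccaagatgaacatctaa
In RPL41A and RPL41B, 69.0% of all 50-base windows occurred elsewhere in the genome, whereas no window of RPL43A, RPL43B or RPL39 did.

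Gene totals of the 54 libraries with an amount ranged from 290434 to 2452562 counts. Of the mating-type markers, 4 alpha-cell genes held 208001 counts over these libraries and 5 a-cell genes held 397. Some libraries stood apart in the RPL share of their counts. Replicates 5 and 9 of 1 ng were low with 1.88% and 1.72%, while the other 6 libraries of 1 ng held 3.31% to 4.13%. Replicate 10 of 100 pg was high with 2.81%. Libraries numbered 1 to 4 in their names had lower mean RPL shares than those numbered above 4 at 5 pg to 100 pg, most at 10 pg with 1.15% (n = 4) and 2.42% (n = 6). At 1 ng the order was opposite with 3.55% and 2.79%, and at 10 ng the means were 5.28% and 5.42%. Their mean gene totals at 10 pg were 719432 and 1925990 counts.

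Large-subunit messages made up a smaller share of the gene counts in every library of 5 pg to 1 ng than in any library of 10 ng. The RPL share of gene counts was 0.491% to 3.29% at 5 pg, 0.825% to 2.73% at 10 pg, 0.974% to 2.66% at 20 pg, 1.1% to 2.81% at 100 pg, 1.72% to 4.13% at 1 ng and 4.52% to 6.15% at 10 ng. Mean shares were 1.87% ± 0.88, 1.91% ± 0.70, 1.85% ± 0.51, 1.60% ± 0.58, 3.17% ± 0.88 and 5.36% ± 0.53 in the same order (SD, n as above). The 4 smallest amounts overlapped throughout. The mean share at 5 pg was 0.35 times, and at 1 ng 0.59 times, that at 10 ng. The share is a sum over the members, and no test was made on it. The separation of 10 ng did not hold with other totals. Without the 10 non-members highest at 10 ng, shares were 2.53% to 6.97% at 1 ng and 6.58% to 9.69% at 10 ng. With spike-ins and reads assigned to no gene in the total, they were 0.14% to 1.96% at 5 pg and 1.51% to 2.32% at 10 ng. The mean stayed highest at 10 ng with both totals, at 8.53% and 1.85%.

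**Figure D1:**
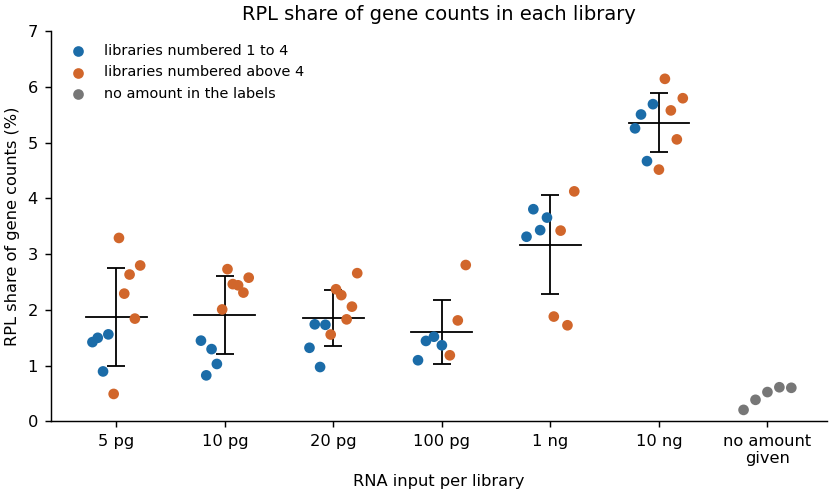
Share of gene counts that fell on the 76 RPL genes (%), 1 point per library, by RNA input, with blue and orange for library numbers 1 to 4 and above 4 and grey for libraries without an amount; bars are the mean and SD per amount. The 9 libraries of 10 ng sit between 4.52% and 6.15%, above all others, and the 5 grey points sit between 0.21% and 0.61%.

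Most members were still counted at the smallest inputs, but not in every library. With at least 5 counts taken as detection, 36 to 70 members were found per library at 5 pg (median 62), 52 to 75 at 10 pg, 50 to 69 at 20 pg, 49 to 71 at 100 pg, 68 to 75 at 1 ng and 73 to 75 at 10 ng. After all libraries were thinned to 290000 counts, the means were 44.1 ± 10.8 members at 5 pg, 55.4 ± 8.6 at 10 pg, 50.1 ± 8.1 at 20 pg, 44.3 ± 9.4 at 100 pg, 68.1 ± 8.6 at 1 ng and 73.6 ± 0.71 at 10 ng (SD over the libraries of each amount). The library at 68 members at 1 ng was replicate 9.

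Counts of the shortest members were scarcest at 20 pg and 100 pg. Members of up to 400 nt supplied 3.87% to 25.9% of the RPL counts at 5 pg, 2.21% to 14.9% at 10 pg, 0.639% to 7.61% at 20 pg, 0.46% to 3% at 100 pg, 1.93% to 15.8% at 1 ng and 13.8% to 24.3% at 10 ng. The lowest median was at 100 pg (1.36%), while 5 pg (11.6%) was close to 1 ng (12.8%). Members above 700 nt showed the opposite order, with mean shares of the RPL counts of 49.4% ± 17.8, 49.4% ± 11.6, 57.4% ± 10.3, 64.4% ± 7.9, 47.0% ± 11 and 32.5% ± 3.1 from 5 pg to 10 ng.

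RPL41A was among the members that differed most between inputs. It had a lowest, median and highest value of 0, 14.1 and 115 CPM at 5 pg, 1.15, 6.27 and 51.3 CPM at 10 pg, 0, 0.723 and 22.9 CPM at 20 pg, 0, 4.04 and 11.9 CPM at 100 pg, 1.92, 418 and 649.8 CPM at 1 ng and 548, 1287 and 1852 CPM at 10 ng. All 37 libraries of 100 pg or less were below the lowest library of 10 ng, and at 20 pg 4 of 10 libraries had no count. RPL41B was listed at 0 in 9 of 10 libraries at 20 pg, and had 129, 271 and 379 CPM at 10 ng. Since the 2 copies differ at 1 base, their separate counts are uncertain.

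RPL43B had 0, 9.4 and 674 CPM at 5 pg, 2.3, 4.93 and 158 CPM at 10 pg, 0, 5.09 and 19.4 CPM at 20 pg, 0, 1.23 and 10.8 CPM at 100 pg, 13.5, 146 and 216 CPM at 1 ng and 253, 632 and 784 CPM at 10 ng, again as lowest, median and highest. At 5 pg 1 library reached 674 CPM while the median was 9.4 CPM, so the amounts overlapped there, whereas at 100 pg every library was below every library of 1 ng. RPL37A, which encodes another small zinc-binding protein and has 267 nt, had medians of 34.1, 3.94, 3.81, 2.42, 150.0 and 267 CPM from 5 pg to 10 ng. Medians of RPL38, a single-copy gene of 237 nt, were 7.13, 5.18, 3.16, 1.35, 43.6 and 145 CPM. For RPL29, a single-copy gene of 180 nt whose product is not needed for growth, they were 3.98, 4.58, 1.26, 0, 21.2 and 89.7 CPM.

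No change was called in RPL3, RPL4A, RPL4B, RPL5 or RPL10, which include the longest members, when all libraries of 2 amounts were compared with edgeR. RPL3, whose protein reaches towards the catalytic centre, had 112, 2359 and 5342 CPM at 5 pg, 906, 2525 and 4155 CPM at 10 pg, 2349.8, 3801 and 5213 CPM at 20 pg, 2967, 3681 and 3938 CPM at 100 pg, 3643, 4046 and 4991 CPM at 1 ng and 3529, 4040.3 and 4401 CPM at 10 ng. The ranges overlapped at every step, the medians at 5 pg, 10 pg, 20 pg and 100 pg were below that at 10 ng, and the SD was 1735 CPM at 5 pg and 267 CPM at 10 ng. RPL5, which carries the 5S ribosomal RNA into the subunit, had medians of 1946, 2352, 2553, 2358, 4090.0 and 4743 CPM. RPL4A and RPL4B, whose protein extends into the exit tunnel, had mean levels of 677 ± 496 and 655 ± 703 CPM at 5 pg and of 633 ± 92.2 and 531 ± 55.4 CPM at 10 ng (SD). RPL10, whose protein joins the subunit last and sits near the P site, had 307 ± 237 CPM at 5 pg and 319 ± 72.4 CPM at 10 ng.

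**Figure D2:**
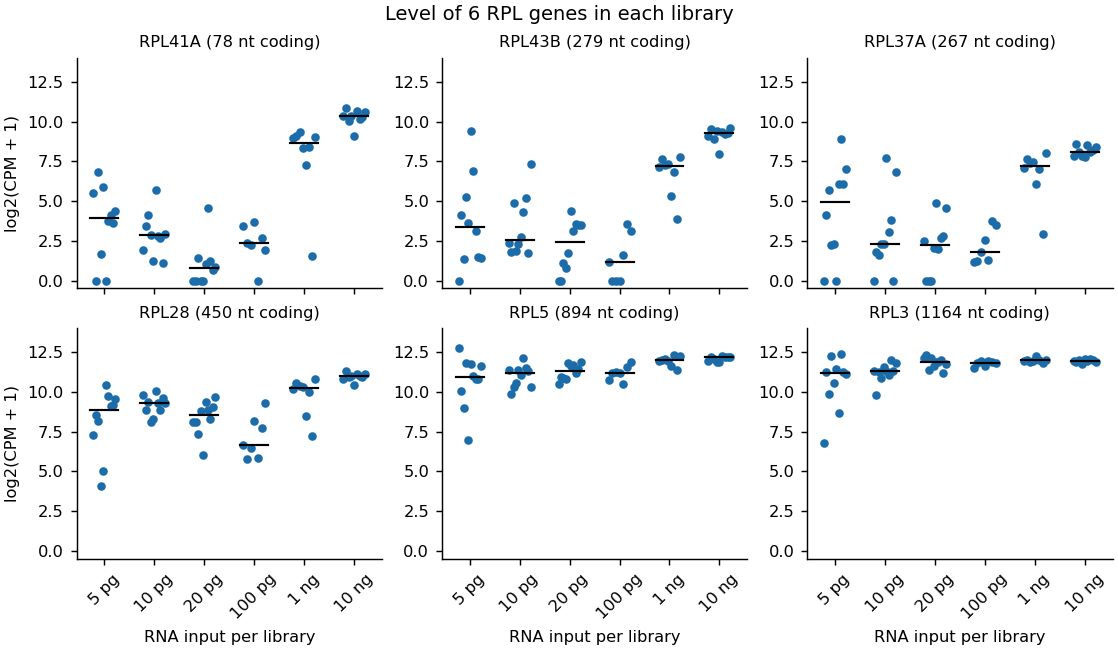
Level of 6 RPL genes as log2(CPM + 1), 1 point per library by RNA input, with the median per amount as a line. The medians of RPL41A, RPL43B and RPL37A at 100 pg are 4.04, 1.23 and 2.42 CPM, RPL28 is intermediate, and RPL5 and RPL3 lie highest at every amount, with RPL3 at medians of 2359 CPM at 5 pg and 4040.3 CPM at 10 ng.

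Counts were compared between amounts with the quasi-likelihood test of edgeR on every gene that reached 5 counts in 20% or more of the libraries entering the fit. Fold changes are log2 values of the smaller over the larger amount, given relative to the median of all genes tested (0.23 for 1 ng against 10 ng, 0.12 for 100 pg against 1 ng and 1.64 for 5 pg against 10 ng), while SE and Benjamini-Hochberg adjusted p refer to the fitted value before subtraction.

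At 1 ng against 10 ng, 62 of the 75 RPL genes tested were lower and none was higher at an adjusted p of 0.05, where 15.9% of the 3927 genes tested were lower and 20.8% higher. Their median relative fold change was -1.49, against 0 over all genes tested by construction, and all 75 were below the median of all genes. In 24 members every library of 1 ng was below every library of 10 ng, which held for 2.72% of all genes tested. RPL43B had the most negative value with -2.54 (SE 0.45, adjusted p = 0.0011), followed by RPL29 with -2.51 (SE 0.46, adjusted p = 0.0014) and RPL35B, the gene of a protein at the tunnel mouth, with -2.46 (SE 0.47, adjusted p = 0.0019). RPL43A stood at -2.38 (SE 0.43, adjusted p = 0.0013), RPL36A at -2.33 (SE 0.49, adjusted p = 0.0035) and RPL41B at -2.32 (SE 0.53, adjusted p = 0.0059). The members nearest to the median of all genes were not called, and RPL10 had -0.01 (SE 0.25, adjusted p = 0.48), RPL21A -0.12 (SE 0.43, adjusted p = 0.86), RPL3 -0.41 (SE 0.19, adjusted p = 0.47), RPL8A -0.42 (SE 0.33, adjusted p = 0.67), RPL25 -0.45 (SE 0.46, adjusted p = 0.72) and RPL22B -0.52 (SE 0.36, adjusted p = 0.54).

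The call count at this step depended on which libraries were compared. Within libraries numbered 1 to 4 (4 against 4), 56 of 75 members were lower, where 12.5% of all genes tested were. Within libraries numbered above 4 (4 against 5), 1 of 75, RPL38, was lower, where 0.565% of all genes tested were. The median relative fold change in that second set was -2.12, against -0.97 in the first; that set holds replicates 5 and 9 of 1 ng. Without both of them, 57 of 75 members were lower in the comparison of all other libraries and 1, RPL10, was higher. Of all 3779 genes tested in that fit, 14.2% were lower and 510 genes were higher.

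At 100 pg against 1 ng, 50 of 75 RPL genes were lower and none was higher, where 3.43% of the 4670 genes tested were lower and 3.45% higher. Of the 50, RPL33B and RPL36A reached 5 counts in no library of 100 pg and passed the filter on low counts only through 1 ng, so their calls carry no weight of their own. Others, among them RPL41B, RPL43B, RPL42B, RPL29 and RPL38, reached 5 counts in too few libraries of 100 pg to pass without those of 1 ng. Their calls share this limit. The median relative fold change of the members was -2.39, and 73 of 75 were negative. Libraries did not overlap in 2 members, RPL43B and RPL38, which held for 0.471% of all genes tested. The most negative values were -6.08 (SE 0.95, adjusted p = 0.00052) in RPL41A, -6.03 (SE 0.77, adjusted p = 9.2e-05) in RPL43B, -5.66 (SE 1.01, adjusted p = 0.0014) in RPL41B, -5.32 (SE 1.2, adjusted p = 0.0085) in RPL33B, -5.28 (SE 0.71, adjusted p = 0.00013) in RPL37A and -4.81 (SE 0.81, adjusted p = 0.00085) in RPL42B. RPL42B encodes a protein next to the E site, where cycloheximide binds. The 3 members above 1000 nt were near or above the median of all genes, with -0.02 (SE 0.35, adjusted p = 0.91) in RPL3, 0.11 (SE 0.41, adjusted p = 0.81) in RPL4A and 0.28 (SE 0.40, adjusted p = 0.62) in RPL4B, and RPL2A, RPL13B and RPL5 followed with -0.43, -0.63 and -0.66, none of them called.

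Within libraries numbered 1 to 4 (4 against 4), 61 of 74 members were lower and 1, RPL4B, higher at this step. Of all 3431 genes tested there, 12% were lower and 555 genes were higher. Within libraries numbered above 4 (3 against 4), edgeR called no member and no other gene, although 41 of 75 members had an unadjusted p below 0.05 and a negative fold change (3.88% of all genes tested), and the median relative fold change was -1.93. Without replicates 5 and 9 of 1 ng, 61 of 74 members were lower, where 6.37% of all genes tested were. The same number was lower when replicate 10 of 100 pg was left out as well, where 8.06% of all genes tested were.

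At 5 pg against 10 ng, 5 of 75 RPL genes were lower and none was higher, where 7.62% of the 3492 genes tested were lower and 23% higher, so the share of members called was close to that of all genes. Those called were RPL31B with -5.99 (SE 1.29, adjusted p = 0.017), RPL22B with -5.85 (SE 1.05, adjusted p = 0.0085), RPL41B with -5.34 (SE 1.24, adjusted p = 0.027), RPL15B with -5.30 (SE 1.15, adjusted p = 0.021) and RPL41A with -4.84 (SE 1.14, adjusted p = 0.036). RPL22B reached 5 counts in no library of 5 pg and passed the filter on low counts only through 10 ng, so its call carries no weight of its own. RPL31B reached 5 counts in too few libraries of 5 pg to pass without those of 10 ng, and its call shares this limit. In 12 members, RPL22B and RPL31B among them, all libraries of 5 pg were below all of 10 ng, which held for 5.27% of all genes tested. The median relative fold change was -2.53, and 74 of 75 members were negative, RPL4B being the exception with 0.33 (SE 0.90, adjusted p = 0.087). RPL4A had -0.21 (SE 0.79, adjusted p = 0.16), RPL10 -0.73 (SE 0.85, adjusted p = 0.4), RPL33A -0.82 (SE 1.30, adjusted p = 0.63), RPL3 -0.83 (SE 0.69, adjusted p = 0.36) and RPL2B -1.19 (SE 0.91, adjusted p = 0.71). RPL35A, the next lowest after those called, had -4.29 (SE 1.14, adjusted p = 0.071).

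The scale matters here. With each library scaled so that the median fold change of all genes is 0, 33 members were lower and none higher (16.4% of all genes tested lower), and over all genes 573 were lower and 233 higher, against 266 lower and 804 higher with TMM scaling. DESeq2 found 15 members lower, where 24.8% of all genes tested were, and 2, RPL4A and RPL4B, higher, where 19.5% were. With it 47 of 75 were below the median of all genes and the median relative fold change was -0.22. Within libraries numbered 1 to 4 no member and no other gene was called by edgeR (0%), and 24 members were lower at an unadjusted p below 0.05, where 11.6% of all genes tested were. Within those numbered above 4 there were 2 members lower, RPL22B and RPL15B, where 17.6% of all genes tested were lower.

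Between neighbouring amounts from 5 pg to 100 pg edgeR called no RPL gene, while DESeq2 called some at the lower 2 steps. At 5 pg against 10 pg, 0 of 75 members were called by edgeR (0% of 3443 genes in either direction), and 2 were lower at an unadjusted p below 0.05, where 12.5% of genes were. DESeq2 called 1 member lower (2.41% of genes) and 14 higher (5.87% of genes). At 10 pg against 20 pg, 0 of 74 members were called (0.0456% of 4388 genes lower), with 1 lower (6.24% of genes) and 4 higher (1.6% of genes) at an unadjusted p below 0.05 and 1 higher in DESeq2 (0.319% of genes). At 20 pg against 100 pg, 0 of 71 were called (0% of 4546 genes), with 5 lower at an unadjusted p below 0.05 (3.17% of genes) and 0 in DESeq2. The median relative fold changes of the members were 0.32, 0.45 and -0.16 at these steps.

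Among the members, the fold change went with coding length, in a direction that differed between steps. At 100 pg against 1 ng the Spearman correlation of relative fold change with coding length was 0.93 over 75 members, and it was 0.79 among the 42 of up to 500 nt and 0.79 among the 33 longer ones. At 1 ng against 10 ng it was 0.77, with 0.61 and 0.65 in the 2 length ranges. At 5 pg against 10 ng it was 0.41, with 0.12 and 0.37. At the 3 smaller steps the sign over all tested members was opposite. The correlation was -0.37 over 75 members at 5 pg against 10 pg, -0.86 over 74 at 10 pg against 20 pg and -0.48 over 71 at 20 pg against 100 pg. In the 2 length ranges it was -0.48 and -0.13, -0.77 and -0.31, and 0.10 and -0.46 at these steps. At the last step the members of up to 500 nt thus did not share the opposite sign. The filter had left out RPL33B, RPL36A, RPL37B and RPL41B there, besides RPL39. At 10 pg against 20 pg the median relative fold change was 1.41 in members of up to 400 nt. These are descriptions across genes that share libraries, and genes are not independent replicates. Within libraries numbered above 4 the correlations were 0.90 at 100 pg against 1 ng and 0.78 at 1 ng against 10 ng, so that the order by length was present where almost no member was called.

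At 100 pg against 1 ng and at 1 ng against 10 ng, other genes of up to 1000 nt also had negative medians, nearer to 0 than those of the members. The other genes are all that are not members, so they include the genes of the small subunit (RPS), which moved in the same direction. Of members of up to 500 nt, 40 of 42 were lower at 100 pg against 1 ng with a median relative fold change of -3.68, against 96 of 408 other genes of that length with a median of -1.36. The 40 include members that passed the filter only through 1 ng. Above 500 and up to 1000 nt, 10 of 30 members were lower with a median of -1.14, against 7 of 1152 other genes with a median of -0.31. Above 1000 nt the medians were 0.11 for the 3 members and 0.23 for 3025 other genes. At 1 ng against 10 ng the medians were -1.87 and -1.50 for members and other genes of up to 500 nt, -1.16 and -0.69 above 500 and up to 1000 nt, and -0.53 and 0.51 above 1000 nt. The level of the members is higher than that of most genes, which also raises the chance of a call, and its part in these counts was not tested.

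**Figure D3:**
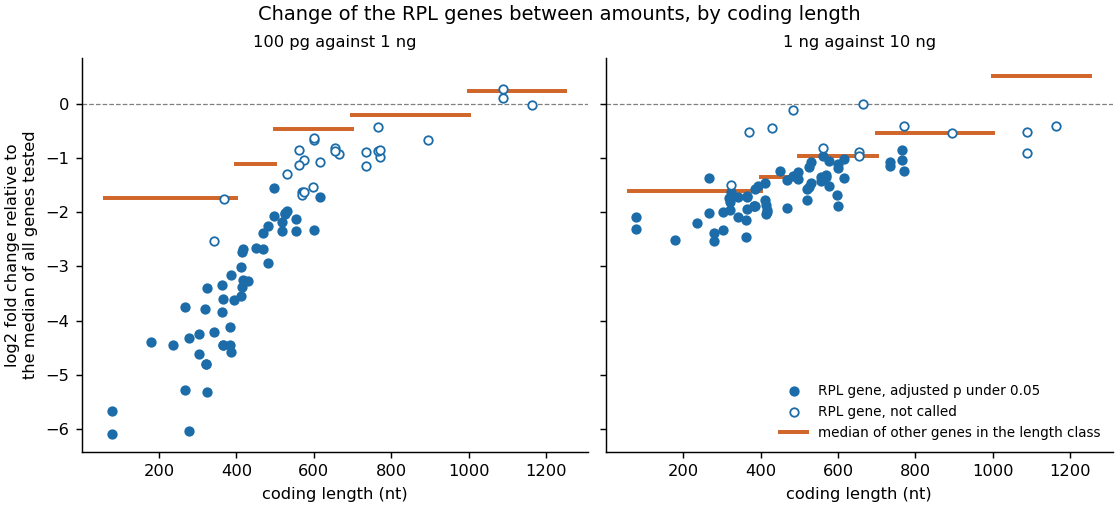
Log2 fold change relative to the median of all genes tested, against coding length (nt), for the 75 tested RPL genes at 100 pg against 1 ng (left) and 1 ng against 10 ng (right); filled points passed an adjusted p of 0.05, and orange lines are the median of other genes, RPS genes included, in each length class. At 100 pg against 1 ng the points climb from -6.08 in RPL41A (78 nt) to 0.28 in RPL4B (1089 nt), and the short members lie under the orange lines.

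Introns went with length. The 51 tested members with an intron had a median coding length of 414 nt and a median relative fold change of -3.01 at 100 pg against 1 ng, and the 24 without one had 576 nt and -1.59. At 1 ng against 10 ng the medians were -1.68 and -1.25. The correlation of the fold change with the level at 10 ng was 0.45 at 100 pg against 1 ng and 0.35 at 1 ng against 10 ng, and length and level were not separated. At 1 ng against 10 ng this level is also the denominator of the fold change, so the 2 correlations are not like measures.

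The copies of a pair kept a steady ratio at 10 ng, which scattered widely at the smaller amounts. Among pairs with at least 20 counts in a library, 1 copy held more than 95% of the counts of its pair in 93 of 267 cases at 5 pg (34.8%), 44 of 279 at 10 pg (15.8%), 21 of 262 at 20 pg (8.02%), 6 of 162 at 100 pg (3.70%), 7 of 258 at 1 ng (2.71%) and 2 of 297 at 10 ng (0.673%). Pairs that are uneven at 10 ng pass 95% more easily, such as RPL36 and RPL21 with mean A-copy shares of 6.96% and 7.74% there. These 2 pairs gave 3 and 5 of the 93 cases at 5 pg, but 7 and 4 of the 21 at 20 pg. At 1 ng RPL36 alone gave 4 of the 7. The SD over libraries of the share of the A copy had a median over pairs of 34.5, 19.8, 13.7, 8.24, 5.47 and 2.78 percentage points in the same order, over pairs with 3 or more such libraries. Pairs differ in how many libraries reach 20 counts, so at 100 pg 24 of 33 pairs gave an SD.

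**Figure D4:**
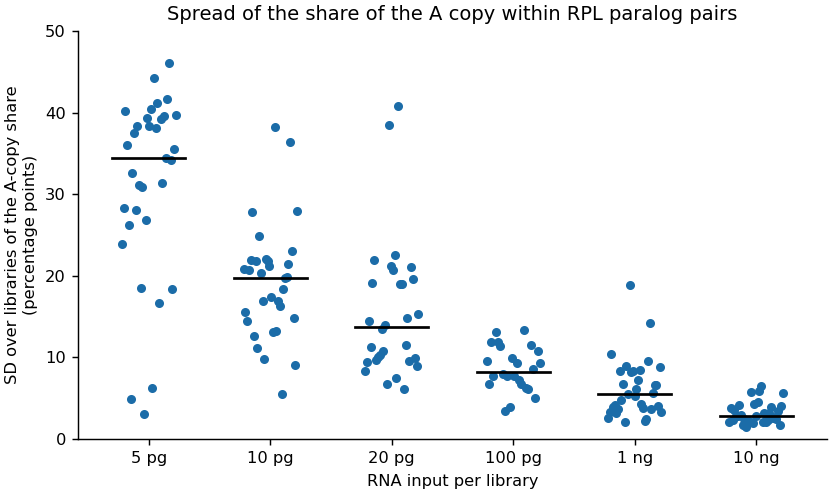
SD over libraries of the share of the A copy in its pair (percentage points), 1 point per RPL pair with at least 20 counts in 3 or more libraries, by RNA input, with the median as a line. The median is 34.5 points at 5 pg and 2.78 points at 10 ng.

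RPL2A and RPL2B, whose protein lies close to the catalytic centre, show this with copies of equal level. The share of RPL2A was 48.5% ± 31.1 at 5 pg (SD, n = 9 libraries with 20 counts, range 7.4% to 93.6%) and 49.9% ± 1.5 at 10 ng (n = 9, range 47.6% to 52.7%). RPL4A held 57.0% ± 31.4 of its pair at 5 pg (n = 10) and 54.2% ± 3.2 at 10 ng (n = 9). In both of these pairs the mean share differed between the 2 amounts by less than the SD at 5 pg.

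In some pairs the fold changes of the 2 copies lay far apart. RPL22A and RPL22B are the least alike in sequence, and their relative fold changes at 5 pg against 10 ng were -1.83 and -5.85, the largest gap of the 33 pairs, although no library of 5 pg had 5 counts of RPL22B. RPL22B was listed at 0 in 7 of 10 libraries at 5 pg, its highest value there was 4.48 CPM, and it had 6.89, 27.8 and 39.9 CPM at 10 ng as lowest, median and highest. RPL22A had 0, 35 and 259.7 CPM at 5 pg and 112, 198 and 269 CPM at 10 ng. RPL15B, from a pair whose protein binds ribosomal RNA early in assembly, had 0, 3.77 and 43.3 CPM at 5 pg and 216, 265 and 375 CPM at 10 ng, with no overlap. RPL15A overlapped, with 5.62, 114 and 879 CPM at 5 pg and 800.2, 965 and 1239 CPM at 10 ng. RPL31B, whose protein sits at the tunnel mouth, had 0, 0 and 9.45 CPM at 5 pg and 24.1, 77.9 and 119.6 CPM at 10 ng, and RPL31A had 0, 4.55 and 79 CPM at 5 pg and 21.6, 88 and 141 CPM at 10 ng. At 1 ng against 10 ng the widest gaps were in RPL22A and RPL22B (-1.94 and -0.52), RPL21A and RPL21B (-0.12 and -1.34), RPL8A and RPL8B (-0.42 and -1.24) and RPL37A and RPL37B (-1.36 and -2.02). At 100 pg against 1 ng they were in RPL33A and RPL33B (-3.39 and -5.32, the second not detected at 100 pg), RPL22A and RPL22B (-3.59 and -1.76), RPL43A and RPL43B (-4.32 and -6.03) and RPL31A and RPL31B (-4.22 and -2.53). The difference between copies was not tested.

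Over all pairs, the relative fold changes of the 2 copies had a Spearman correlation of 0.36 at 5 pg against 10 ng, 0.66 at 1 ng against 10 ng and 0.90 at 100 pg against 1 ng (33 pairs). The copies have the same coding length in all pairs but RPL16 and RPL22. Only uniquely mapped reads were counted, so reads from stretches that both copies hold may be missing from both. In 12 members at least 50% of the 50-base windows occur elsewhere in the genome, and 26 members have no such window. By the study's methods the reads were paired and longer than these windows, so a repeated window need not mean a lost read.

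Levels can be set against each other only per length. Per kilobase of coding sequence at 10 ng, RPL41A was first with 16599.6 CPM, ahead of RPL5 (4978), RPL28 (4513), RPL3 (3444) and RPL41B (3327). Division by 78 nt of coding sequence overstates RPL41A and RPL41B relative to longer genes, since untranslated parts of the message are not in the length. The lowest counted members were RPL33B (34.9), RPL25 (50.7) and RPL22B (68.1). The order of the 76 members by mean CPM at 10 ng had a Spearman correlation of 0.84 with that at 5 pg, 0.78 at 10 pg, 0.75 at 20 pg, 0.77 at 100 pg and 0.94 at 1 ng.

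The other single-copy members lay between the extremes. RPL28, known for mutations that give cycloheximide resistance, had 55.2, 101 and 635 CPM at 100 pg and 148, 1212 and 1841 CPM at 1 ng, which overlapped, with -2.66 (SE 0.57, adjusted p = 0.0071) for the fold change. RPL30, whose protein represses the splicing of its own transcript, had 2, 9.86 and 63.8 CPM at 100 pg and 19.2, 228 and 349.9 CPM at 1 ng, with -3.79 (SE 0.69, adjusted p = 0.0017). RPL32 had -3.62 (SE 0.60, adjusted p = 0.00085) at this step. RPL25, whose protein is the docking site of factors that receive the new chain, was low at every amount, with medians of 0.775, 11.9, 5.46, 1, 19.1 and 21.6 CPM from 5 pg to 10 ng. It was lower at 100 pg against 1 ng with -3.27 (SE 0.88, adjusted p = 0.027), and not called at 1 ng against 10 ng.

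RPL39 gave 0 counts in all 54 libraries with an amount. Whether both sets of files were counted with the same annotation is not given in the sources used here, so the 0 may not be a level. If the gene was counted, 0 of 69986280 gene counts allows up to 0.0429 CPM (3 counts of the total, for counting error only). In the libraries without an amount RPL39 had 24 to 202 counts each (median 59, 404 in all), or 3.75 to 14.4 CPM.

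The small-subunit genes moved in the same direction. Of 56 RPS genes 55 were tested, and 49 were lower at 1 ng against 10 ng (median relative fold change -1.61), 34 at 100 pg against 1 ng (-2.44) and 2 at 5 pg against 10 ng (-2.44), with none higher. Over all genes tested 15.9%, 3.43% and 7.62% were lower in these comparisons, so that the 2 RPS genes at 5 pg are below that share. The 5 genes of P-stalk proteins, acidic proteins at the site where translation factors bind, had 4, 1 and 0 lower in these comparisons (medians -1.84, -1.2 and -0.08), and RPP0 was higher at 5 pg against 10 ng, where 23% of all genes tested were. Of 22 genes for chaperones and assembly factors of the large subunit, 15 were tested at 1 ng against 10 ng and 2 were higher, NMD3 and REI1, whose proteins act in export and in the last cytoplasmic steps of subunit maturation, against 20.8% of all genes tested. Of 16 tested at 100 pg against 1 ng none was called, by adjusted or unadjusted p. Of 12 tested at 5 pg against 10 ng, MRT4, whose protein holds the place of P0 in the nucleus, was lower and BCP1, the chaperone of the RPL23 protein, higher. Their medians were 0.07, 0.05 and 0.01. Of 8 regulators of ribosomal protein genes, RAP1 was higher at 1 ng against 10 ng (3 tested, median 1.25), none was called at 100 pg against 1 ng (8 tested, median 0.74, 2 higher by unadjusted p), and SFP1 was higher at 5 pg against 10 ng (2 tested, median 2.37). These genes are mostly longer than the members. At the 3 steps between 5 pg and 100 pg no gene of these 4 lists was called.

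In the 5 libraries without an amount, which held 6407797 to 14337575 gene counts, the RPL share was 0.21%, 0.39%, 0.53%, 0.61% and 0.60%. They detected 76, 76, 76, 67 and 67 members. Short members were present, and those of up to 400 nt supplied 10.9% to 20.6% of the RPL counts (median 19.4%). RPL41A had 13.7, 87.6 and 137 CPM there as lowest, median and highest, RPL3 283, 327 and 439 CPM, RPL5 20.2, 39.5 and 129 CPM and RPL10 266, 508 and 588 CPM.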

How the data were processed

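Values are raw counts per gene, 1 library per file. The authors aligned to R64 by STAR 2.5.2 and deposited uniquely mapped counts for each gene. HTSeq and RSEM 1.2.31 also appear in the submitters' processing notes. The kit does not mark strand. Lines that name no gene held up to 12.1% of a grouped library's counts and, with the spike-ins, were left out of totals. CPM was computed from gene totals. Depth, 290434 to 2452562 counts, sets the precision of low members.

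Amounts were compared with the edgeR 4.0.16 quasi-likelihood test (TMM, 5 counts or more in 20% or more of the libraries, only the 2 amounts compared, adjusted p of 0.05). It was also run on simulated data with the same spread in both amounts and as many genes raised as lowered. Spread differs between the real amounts, so that run does not show how the test performs on them. SE was taken as the absolute log2 fold change over the root of the F statistic. Alternatives were DESeq2 1.42.0, no filter, a replicate block, a covariate, median-centred scaling, thinning, and subsets of libraries. Sequences and coding lengths come from RefSeq (R64). Members in full were those with the highest level per kilobase, the 6 lowest and 6 highest fold changes per main comparison, single-copy genes and the pairs furthest apart. Values of 1 such member are not reported here. Members and lists were chosen with earlier results of these data known. Software was R 4.3.3 with limma 3.58.1 and, under Python 3.11.15, matplotlib 3.10.9 for plots, scipy 1.17.1 for correlations, and pandas 2.3.3 with numpy 2.4.6 for tables.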

Additional observations from a re-analysis of the deposited data

Results flagged for a closer look

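Within each amount, 90 sets of library values (the RPL share, members detected, count-weighted coding length and the levels of 12 members) were searched for a library far from the others by Dixon's gap criterion at the 95% level. For normally distributed values chance passes it in about 1 in 20 sets. Levels in CPM that are skewed or often 0 may pass it more often. At 5 pg the single high libraries were replicate 3 with 115 CPM of RPL41A (median 14.1), replicate 6 with 36.9 CPM of RPL41B (median 2.27) and 674 CPM of RPL43B (median 9.4), replicate 8 with 276 CPM of RPL43A (median 21.5), replicate 1 with 7111 CPM of RPL5 (median 1946) and replicate 2 with 4.48 CPM of RPL22B (median 0). At 10 pg they were replicate 6 with 51.3 CPM of RPL41A (median 6.27) and 161 CPM of RPL43A (median 10.8), replicate 10 with 158 CPM of RPL43B (median 4.93) and 139.6 CPM of RPL22B (median 6.08), and replicate 4 with 1596 CPM of RPL4B (median 372). At 20 pg replicate 7 had 22.9 CPM of RPL41A (median 0.723) and 1.21 CPM of RPL41B (median 0). No other library of 20 pg had a count of RPL41B, and the RPL22B value flagged at 5 pg was below 5 counts.

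At 100 pg replicate 10 stood apart with an RPL share of 2.81% (median 1.44%), a count-weighted coding length of its RPL counts of 736 nt (median 851 nt) and 635 CPM of RPL28 (median 101), and replicate 7 with 30.2 CPM of RPL22B (median 4.96). At 1 ng replicate 9 had the fewest members detected, 68 (median 74), the lowest level of RPL4A, 209 CPM (median 472), and the highest of RPL4B, 664 CPM (median 489), and replicate 5 the highest of RPL3, 4991 CPM (median 4046). At 10 ng replicate 2, the library with the fewest counts, detected 73 members (median 75).

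RPL39 held 404 counts in the 5 libraries without an amount (median 59), which entered no comparison, and 0 counts in the 54 libraries with one.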

How the results depend on the processing

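For 5 pg against 10 ng the 5 members called lower became 15 with DESeq2, 0 with the number of detected genes as a covariate and 33 with median-centred scaling. They became 16 after thinning to 290000 counts, 0 within libraries numbered 1 to 4 and 2 within those numbered above 4. Over all genes tested 24.8%, 0.773%, 16.4%, 8.2%, 0% and 17.6% were lower under these 6 settings in the same order. Leaving out 1 library at a time gave 4 to 10, with 10 without 5 pg replicate 10 and 8 without 5 pg replicate 3. RPL41A lost its call in 5 of these 19 fits, and RPL31B, RPL22B, RPL41B and RPL15B kept theirs in all 19. RPL22B and RPL31B passed the filter only through 10 ng, so their kept calls carry no weight of their own. For 1 ng against 10 ng the 62 members called became 1 within libraries numbered above 4, and leave-one-out fits gave 44 to 65, with 43 members called in all 17. For 100 pg against 1 ng the 50 called became 0 within libraries numbered above 4, and leave-one-out fits gave 38 to 56, with 37 called in all 15. Those 37 include members that passed the filter only through 1 ng. In these 2 comparisons the other settings and the 3 fits chosen after seeing the data gave counts within 1.5 times. The 0 calls at 5 pg against 10 pg became 15, and those at 10 pg against 20 pg became 1, with DESeq2, and at 20 pg against 100 pg no alternative called a member. Thinning moved the mean number of members detected to 44.1 at 5 pg, against 58.4 unthinned, and to 73.6 at 10 ng, against 74.8. The cause of these shifts was not tested. No fold change of a named member that was called reversed its sign under the settings tried.

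Groups share library numbers, but same-numbered libraries did not deviate together in every pair. The correlation of their deviations ranged from -0.08 to 0.03 at 5 pg against 10 ng (9 pairs, 1 best matched to its own number), from -0.00 to 0.52 at 1 ng against 10 ng (8 pairs, 4 so matched) and from 0.02 to 0.26 at 100 pg against 1 ng (7 pairs, 5 so matched). With the number as a replicate block, 4, 66 and 61 members were lower in these comparisons, where 15.7%, 18% and 6.26% of all genes tested were. At the 3 smaller steps 0, 0 and 0 members were called with the block. At 5 pg against 10 ng the block also moved the median relative fold change of the members to -0.22, against -2.53 without it. There 42 of 75 members were negative, against 74.

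Libraries of 5 to 100 pg rest on few molecules and no molecular identifiers, so p-values and intervals do not separate PCR copies. A member at 0 there was not detected, which does not show that its message was absent.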

Other observations

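The count-weighted mean coding length of the RPL messages was 736 ± 86 nt at 5 pg, 741 ± 65 nt at 10 pg, 797 ± 59 nt at 20 pg, 829.4 ± 46 nt at 100 pg, 711 ± 63 nt at 1 ng and 615 ± 20 nt at 10 ng (SD over the libraries of each amount). Replicates 5 and 9 of 1 ng, which had the lowest RPL shares of that amount, had 808 and 813 nt, inside the range of 736 to 869 nt at 100 pg, while the other 6 libraries of 1 ng had 662 to 710 nt. In the 5 libraries without an amount it ran from 573 to 706 nt (median 620 nt).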
